A study of Homo sapiens with 14 samples.

Results

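The 48 genes described here are those whose symbol names a subunit of an ionotropic glutamate receptor (GRIA, GRIK, GRIN or GRID with a number), a metabotropic glutamate receptor (GRM with a number), a GABA-A receptor subunit (GABR) or a GABA-B receptor subunit (GABBR1, GABBR2). They were picked by symbol from 57445 gene rows, with 6 antisense rows left out. By name, 26 are glutamate receptor subunits, 21 are GABA receptor subunits, and GRID2IP is an interacting protein. RNA was sequenced from H9 (WA-09), an established human pluripotent stem cell line, and from cells derived from it along a protocol for midbrain dopamine neurons, in 14 libraries of 7 groups with 2 libraries each. Day 11 cultures had received CHIR99021 (CHIR), a GSK3 inhibitor that activates WNT signalling, at 0.7, 3, 5 or 7.5 µM from day 4. Day 16 and day 30 cultures came from the 7.5 µM protocol, and undifferentiated cells (hPSC) were the starting point.

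Every differentiated group shared the same base treatment. It began with SHH C25II, LDN, SB431542 and 0.7 µM CHIR up to day 3. LDN, SB431542 and SHH were removed on day 7. From day 10 all arms were moved to a medium with BDNF, ascorbic acid, GDNF, TGFβ3, dibutyryl cAMP and 3 µM CHIR. Cells were replated on days 11 and 16, with the gamma-secretase inhibitor DAPT in the medium after day 11. The labels give day 16 for the group that the series text calls day 20. All groups come from 1 cell line, and each library is bulk RNA of a mixed culture, so fewer cells of a type and less RNA per cell cannot be told apart.

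Glutamate is the main excitatory transmitter of the brain and GABA the main inhibitory one. AMPA, kainate and NMDA receptors are glutamate-gated cation channels assembled from several subunits, delta receptors are synaptic organisers of the same family, and metabotropic receptors (mGlu) signal through G proteins. GABA-A receptors are chloride channels, most often built from alpha, beta and gamma subunits, and GABA-B receptors are G protein-coupled dimers of GABBR1 and GABBR2. In developing tissue GABA often depolarises cells, and both transmitters can act on progenitors before synapses form.

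Each library up to day 11 held between 20.5M and 44.8M gene counts (M, 1000000 counts), and each later one between 5.41M and 6.34M. Levels are CPM, counts per 1000000 gene counts, given for replicate 1 and then replicate 2, and levels of different genes are compared only as CPM per kb of exon. The pluripotency list (POU5F1, NANOG, LIN28A, DPPA4, TDGF1, L1TD1) summed to 1170 to 1890 CPM at day 11, against 4470 and 4860 CPM in hPSC. For the mean of the 4 day 11 arms 5 of its 6 genes were called lower, where 13.3% of all genes were. NANOG and TDGF1 entered that test only through hPSC, so their calls are read as no result. LIN28A, the sixth, did not pass the test. The neural progenitor list summed to 6370 to 9950 CPM at day 11, against 994 and 617 CPM in hPSC. At day 30 the general neuron list summed to 572 and 612 CPM, with STMN2 at 137 and 135 CPM, while the TUBB3 row used was listed at 0.177 and 0 CPM. All day 11 libraries numbered replicate 1 carry 1 code in their descriptions, all numbered replicate 2 another. The deviations of same-numbered libraries from their group means correlated at 0.619 to 0.827 over the 6 pairs of day 11 groups, across 19672 genes, which are not independent. The replicate number was therefore used as a block in the dose comparisons, and "rose" or "fell" between doses refers to the blocked fit.

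Promoter sequences are shown for GRM4, GRIN3A and GRIK3, whose difference between 7.5 and 0.7 µM held without each single library, and for GABRB2, the other gene with a TCF/LEF motif. TCF/LEF proteins are the DNA-binding factors of the WNT pathway. Each window runs 5′ to 3′ along the gene, from 250 bases before the start to 50 after it, from RefSeq (GRCh38.p14), and capitals mark the motif CTTTGAT, the only motif searched, on either strand.
GRM4, chr6:34110714-34111013, minus strand: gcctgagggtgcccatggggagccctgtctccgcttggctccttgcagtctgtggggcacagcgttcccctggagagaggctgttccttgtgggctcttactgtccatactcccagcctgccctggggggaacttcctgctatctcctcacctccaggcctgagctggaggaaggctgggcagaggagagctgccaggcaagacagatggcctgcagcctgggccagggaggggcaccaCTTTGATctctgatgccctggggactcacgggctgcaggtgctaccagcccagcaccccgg
GABRB2, chr5:161546676-161546975, minus strand: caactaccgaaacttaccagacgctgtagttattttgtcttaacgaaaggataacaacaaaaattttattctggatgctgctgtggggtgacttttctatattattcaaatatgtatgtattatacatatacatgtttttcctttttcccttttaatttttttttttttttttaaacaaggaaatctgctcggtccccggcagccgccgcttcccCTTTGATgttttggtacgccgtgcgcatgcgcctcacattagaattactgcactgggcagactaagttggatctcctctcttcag
GRIN3A, chr9:101738598-101738897, minus strand: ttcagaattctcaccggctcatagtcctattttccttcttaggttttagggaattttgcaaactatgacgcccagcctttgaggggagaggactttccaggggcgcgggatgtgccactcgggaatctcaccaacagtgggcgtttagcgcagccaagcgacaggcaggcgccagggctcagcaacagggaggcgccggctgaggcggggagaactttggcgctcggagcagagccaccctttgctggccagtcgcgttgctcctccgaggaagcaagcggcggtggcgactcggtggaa
GRIK3, chr1:37034466-37034765, minus strand: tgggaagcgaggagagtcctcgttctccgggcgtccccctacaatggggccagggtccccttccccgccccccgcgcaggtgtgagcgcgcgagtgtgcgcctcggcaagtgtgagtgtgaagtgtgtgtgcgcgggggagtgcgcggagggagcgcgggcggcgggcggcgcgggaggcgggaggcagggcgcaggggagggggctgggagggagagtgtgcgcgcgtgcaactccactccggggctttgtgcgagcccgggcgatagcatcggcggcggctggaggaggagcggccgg

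A window was on hand for 35 of the 48 genes. The motif lay in those of 2 of them, 5.71% of the genes with a window, against 3.18% of all 27305 genes with one. In GRM4 it began 11 bases before the start, in 1 of its 2 windows, and in GABRB2 35 bases before the start. The GRM4 window shown held 4 CG dinucleotides and that of GABRB2 11. GRIN3A and GRIK3 held 21 and 37, against a median of 14 over 35116 windows. The 2 genes with the motif moved in opposite directions between 7.5 and 0.7 µM, as described next.

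Between 7.5 and 0.7 µM CHIR at day 11, the sharpest differences were a fall of GRM4 and rises of GRIN3A and GRIK3. With the replicate block, 14 of the 39 genes tested passed (edgeR quasi-likelihood, Benjamini-Hochberg adjusted p under 0.05), 7 higher and 7 lower, where 10.5% of all 18709 genes tested passed, 5.64% higher and 4.87% lower. Without the block none passed by edgeR, with 12 at an unadjusted p under 0.05, where 0.0% of all genes passed. DESeq2 without the block called 4, and 3.51% of all genes. The median log2 fold change with the block was -0.09 over the 39 genes and 0.07 over all genes tested. The 14 came from 9 of the 13 receptor classes, and the AMPA and NMDA classes held calls in both directions. Without any scaling factor 7 were called higher and 4 lower, and with RLE factors 6 higher and 8 lower.

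**Figure D1:**
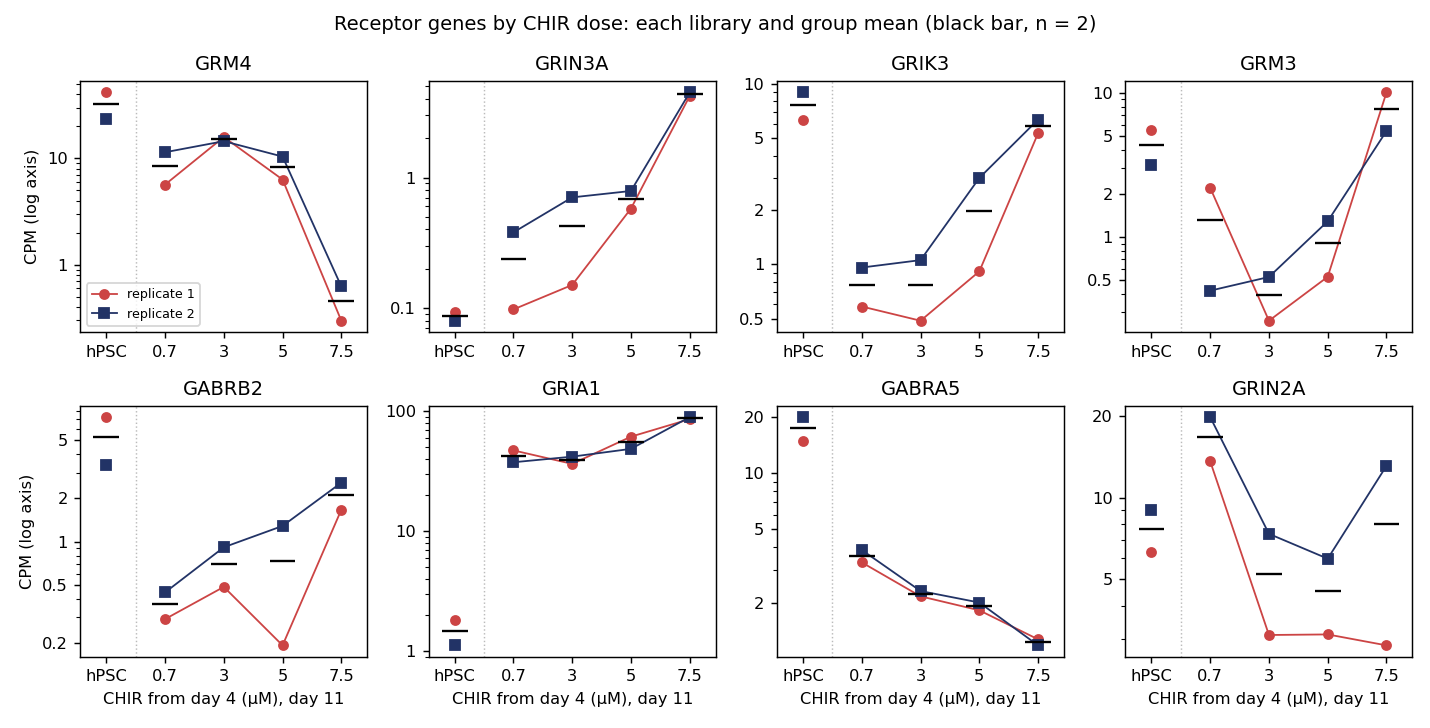
CPM on log axes of 8 receptor genes in hPSC and across CHIR concentrations at day 11, with 1 point per library, lines joining libraries of the same replicate number and black bars at the group means (n = 2). GRM4 lies at 0.297 and 0.624 CPM at 7.5 µM, below all other libraries, and GRIN3A lies at 4.22 and 4.49 CPM there, above all others.

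GRM4, a group III mGlu receptor that couples to inhibitory G proteins, had 41.6 and 23.4 CPM in hPSC. At day 11 it had 5.65 and 11.4 CPM at 0.7 µM, 15.8 and 14.5 CPM at 3 µM, 6.31 and 10.4 CPM at 5 µM, and 0.297 and 0.624 CPM at 7.5 µM. The levels at 0.7 and 5 µM overlapped, those at 3 µM were the highest of day 11, and those at 7.5 µM stood below every other library. The last values rest on 10 and 20 counts. GRM4 fell at 7.5 µM against 0.7 µM (log2 fold change -4.36 ± 0.47 SE, edgeR adjusted p = 0.000839) and against 5 µM (-4.41 ± 0.47, adjusted p = 0.00993). Without the block the first of these was -4.38 ± 0.62 with an adjusted p of 0.165. Both blocked calls held without each library in turn.

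No other group III receptor passed between doses. GRM8 had 10.2 and 10.6 CPM in hPSC, then 3.90 and 3.37 CPM at 0.7 µM, 2.59 and 2.50 CPM at 3 µM, 1.40 and 1.81 CPM at 5 µM, and 4.78 and 4.77 CPM at 7.5 µM. Its lowest pair was at 5 µM, and all day 11 libraries lay below hPSC. The difference between 7.5 and 5 µM in GRM8 was 1.33 ± 0.36 with an adjusted p of 0.0538 (edgeR, blocked). GRM7 stayed between 0.241 and 1.47 CPM at day 11, and GRM6, known from retinal bipolar cells, had no count in any hPSC or day 11 library.

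GRM3, a group II mGlu receptor, had 5.51 and 3.15 CPM in hPSC. It had 2.19 and 0.424 CPM at 0.7 µM, 0.263 and 0.528 CPM at 3 µM, 0.530 and 1.28 CPM at 5 µM, and 10.0 and 5.42 CPM at 7.5 µM. Both 7.5 µM libraries lay above every other day 11 library. GRM3 rose at 7.5 µM against 0.7 µM (2.54 ± 0.66, edgeR adjusted p = 0.0361) and against 5 µM (2.69 ± 0.67, adjusted p = 0.045). The first call was lost without 0.7 µM replicate 2 (1.65, adjusted p = 0.166) and without 7.5 µM replicate 1 (2.22, adjusted p = 0.123). The second was lost without either 5 µM library or 7.5 µM replicate 1, at 1.91 to 3.85. GRM2, of the same group, had 4.43 and 2.99 CPM at 7.5 µM and 2.48 and 1.32 CPM at 0.7 µM, and did not pass. In group I, GRM5 reached at most 0.312 CPM at day 11. Of the exon sequence of GRM5, 50.41% is shared with an antisense gene, and whether counting used the strand is not given in the sources used here.

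Among NMDA receptor subunits GRIN3A moved furthest with dose. GRIN3A encodes a glycine-binding subunit that lowers the calcium permeability of the channel. It had 0.0929 and 0.0798 CPM in hPSC, 0.0974 and 0.380 CPM at 0.7 µM, 0.150 and 0.704 CPM at 3 µM, 0.578 and 0.789 CPM at 5 µM, and 4.22 and 4.49 CPM at 7.5 µM. The 2 libraries at 7.5 µM stood above all others, and those at 5 µM lay above those at 0.7 µM, with 3 µM overlapping both. In 0.7 µM replicate 1 GRIN3A did not reach the expression filter of the test, which it reached in both libraries at 5 and 7.5 µM. The size of its rise from 0.7 µM, given next, is therefore uncertain. GRIN3A rose at 7.5 µM against 0.7 µM (4.01 ± 0.60, edgeR adjusted p = 0.00393), a call that held without each library. Against 5 µM it rose by 2.49 ± 0.54 (adjusted p = 0.0331), but lost the call without either 5 µM library or without 7.5 µM replicate 1, at adjusted p of 0.089 to 0.254.

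GRIN3B, the paralogous glycine-binding subunit, went the other way. It had 0.248 and 0 CPM in hPSC, then 1.95 and 0.581 CPM at 0.7 µM, 0.976 and 0.775 CPM at 3 µM, 0.626 and 0.759 CPM at 5 µM, and 0.356 and 0.187 CPM at 7.5 µM. Levels at 7.5 µM were below every other day 11 library. GRIN3B fell against 0.7 µM (-2.24 ± 0.59, edgeR adjusted p = 0.0373), a call lost without 0.7 µM replicate 1 (adjusted p = 0.236) or 7.5 µM replicate 1 (adjusted p = 0.0917), and without scaling factors (adjusted p = 0.0626). GRIN2A, a glutamate-binding subunit, had 6.32 and 9.02 CPM in hPSC, 13.6 and 19.9 CPM at 0.7 µM, 3.11 and 7.36 CPM at 3 µM, 3.13 and 5.96 CPM at 5 µM, and 2.85 and 13.1 CPM at 7.5 µM. GRIN2A was higher at 0.7 µM than at any other dose within each replicate number, and fell at 7.5 µM (-1.50 ± 0.41, adjusted p = 0.0453). The call was lost without either 0.7 µM library, without 7.5 µM replicate 1 (-0.91, adjusted p = 0.0943) and without scaling factors. GRIN2C was at 0.0487 to 1.01 CPM at day 11 and passed in no dose comparison.

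GRIK3, a low-affinity kainate receptor subunit, had 6.32 and 8.94 CPM in hPSC. At day 11 it had 0.585 and 0.961 CPM at 0.7 µM, 0.488 and 1.06 CPM at 3 µM, 0.915 and 3.01 CPM at 5 µM, and 5.32 and 6.33 CPM at 7.5 µM. It was thus low at 0.7 and 3 µM, and at 7.5 µM 1 library lay just inside the range of hPSC and the other below it. GRIK3 rose at 7.5 µM against 0.7 µM (2.80 ± 0.44, edgeR adjusted p = 0.00482), also without each library, and the difference from 5 µM (1.50 ± 0.41) had an adjusted p of 0.0564. The most abundant kainate subunit per kb at day 11 was GRIK5, which needs a partner subunit to form a channel. GRIK5 had 40.1 and 29.6 CPM at 0.7 µM, 31.8 and 39.2 CPM at 3 µM, 23.5 and 45.1 CPM at 5 µM, and 14.3 and 27.6 CPM at 7.5 µM, against 38.5 and 33.9 CPM in hPSC. At 7.5 µM both libraries lay below all of those at 0.7 and 3 µM and in hPSC, whereas the other groups overlapped one another, and none of its comparisons passed. GRIK1 had no count at 5 µM and 0.208 and 0.655 CPM at 7.5 µM, 28 counts in all, at least 6.81-fold higher (floor of 3 counts over the group, counting error only), with an edgeR adjusted p of 0.063 that missed the threshold.

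AMPA receptors were led by GRIA1, which had the largest share of the class per kb in every day 11 library and was higher at 7.5 µM. GRIA1 had 1.83 and 1.12 CPM in hPSC, 47.1 and 37.5 CPM at 0.7 µM, 36.4 and 41.8 CPM at 3 µM, 61.3 and 48.5 CPM at 5 µM, and 85.8 and 89.2 CPM at 7.5 µM. No library at another dose reached the 7.5 µM level. It rose by 0.89 ± 0.25 between 7.5 and 0.7 µM (edgeR adjusted p = 0.0474), a call lost with RLE factors (0.84, adjusted p = 0.0603) and without either 0.7 µM library or 7.5 µM replicate 2. GRIA1 made up 93.1% and 79.2% of AMPA subunit CPM per kb at 7.5 µM, against 70.4% and 49.1% at 0.7 µM.

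GRIA2, the subunit whose edited form makes AMPA receptors impermeable to calcium, differed between replicate numbers as well as between doses. It had 0.155 and 0 CPM in hPSC, 6.82 and 32.3 CPM at 0.7 µM, 2.66 and 18.7 CPM at 3 µM, 2.12 and 15.8 CPM at 5 µM, and 2.94 and 18.5 CPM at 7.5 µM. The dose groups overlapped, while within each replicate number 0.7 µM was the highest. GRIA2 fell at 7.5 µM against 0.7 µM (-1.17 ± 0.28, edgeR adjusted p = 0.0265), and the call was lost without either 0.7 µM library and without scaling factors. GRIA2 held 2.73% and 14.0% of the AMPA subunit CPM per kb at 7.5 µM, and 8.71% and 36.2% at 0.7 µM. Of the other AMPA subunits, GRIA3 (-1.37 ± 0.40, adjusted p = 0.0544) and GRIA4 (-1.19 ± 0.41, adjusted p = 0.0873) did not pass.

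**Figure D2:**
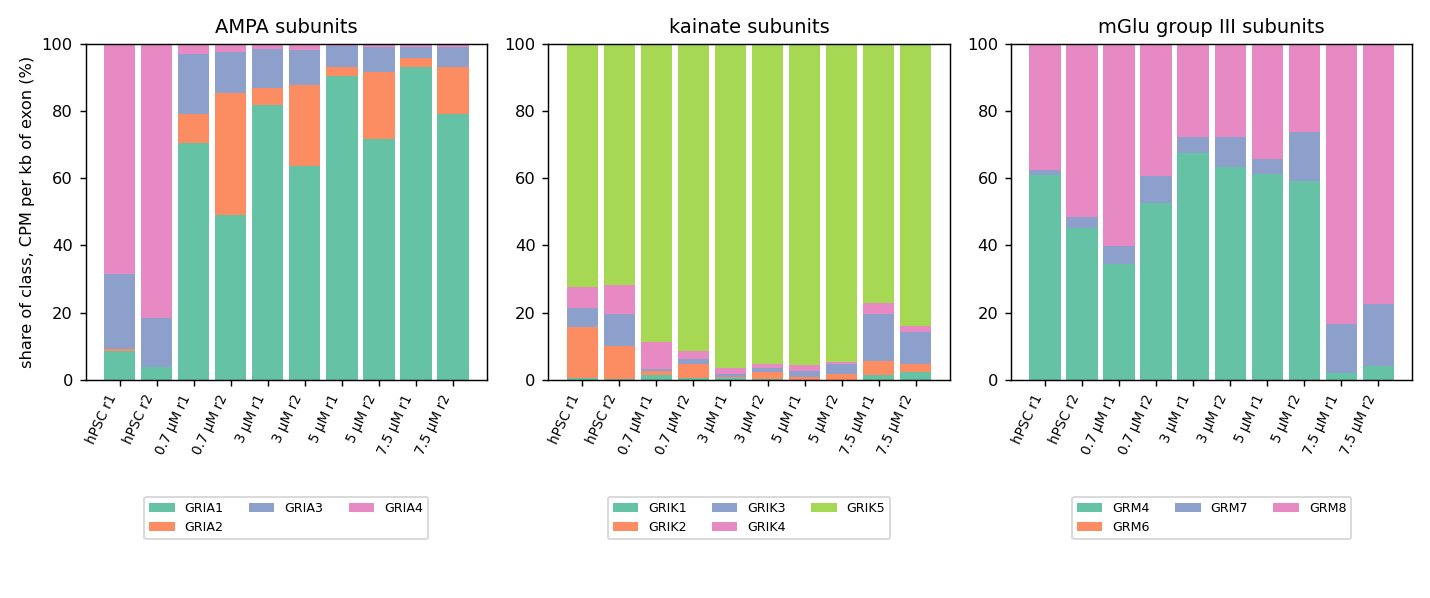
Share of each subunit in the CPM per kb of its class, as a percentage, for each hPSC and day 11 library (r, replicate), with AMPA, kainate and mGlu group III genes in separate panels. GRIA4 leads the AMPA class in hPSC with 68.4% and 81.5%, and GRIA1 leads it in every day 11 library, with 93.1% and 79.2% at 7.5 µM, while GRM4 holds 2.05% and 4.0% of its class at 7.5 µM against 34.5% and 52.5% at 0.7 µM.

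GRID1, a delta receptor, was between 0.530 and 1.41 CPM at day 11, and none of its dose comparisons passed.

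GABA-A alpha subunits set part of the receptor's drug sensitivity. GABRA5, common in hippocampus and in embryonic brain, had lower values at each higher dose. It had 15.0 and 20.1 CPM in hPSC, 3.31 and 3.87 CPM at 0.7 µM, 2.18 and 2.32 CPM at 3 µM, 1.83 and 2.02 CPM at 5 µM, and 1.28 and 1.19 CPM at 7.5 µM. The groups did not overlap at any of these doses. GABRA5 fell at 7.5 µM against 0.7 µM (-1.72 ± 0.38, edgeR adjusted p = 0.0195), but the call was lost without either 0.7 µM library, at adjusted p of 0.0527 and 0.107. GABRA2 had 6.78 and 4.75 CPM in hPSC, 12 and 38.8 CPM at 0.7 µM, 7.66 and 24.2 CPM at 3 µM, 6.50 and 24.3 CPM at 5 µM, and 5.41 and 19.0 CPM at 7.5 µM. Replicate 2 was the higher at every dose and 7.5 µM the lowest within each number. GABRA2 fell by 1.26 ± 0.27 on the log2 scale (adjusted p = 0.0163), a call lost without either 0.7 µM library. GABRA3, the alpha subunit with the most CPM per kb at day 11, had 9.09 and 13.9 CPM at 7.5 µM, 7.65 and 7.95 CPM at 0.7 µM, and 12.6 and 16.4 CPM in hPSC, and no dose comparison passed. GABRA4 was at 0.211 to 1.84 CPM at day 11, and GABRA6, a cerebellar granule cell subunit, at most 0.0297 CPM.

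GABA-A beta subunits form part of the GABA binding site. GABRB2 had 7.25 and 3.39 CPM in hPSC, 0.292 and 0.447 CPM at 0.7 µM, 0.488 and 0.916 CPM at 3 µM, 0.193 and 1.28 CPM at 5 µM, and 1.66 and 2.56 CPM at 7.5 µM. The 7.5 µM libraries were the highest at day 11. In 0.7 µM replicate 1 GABRB2 was below the filter, so the size of its rise from 0.7 µM is uncertain. GABRB2 rose by 2.38 ± 0.57 (adjusted p = 0.0268), and the call was lost without either 0.7 µM library or without 7.5 µM replicate 1. GABRB1 was at most 0.536 CPM at day 11.

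Gamma subunits shape anchoring and benzodiazepine binding. GABRG3, the one with the most CPM per kb at day 11, ranged between 0.468 and 2.08 CPM there, and GABRG1 had 0.327 and 0.156 CPM at 7.5 µM and no count at 0.7 µM. GABRR subunits form the receptors once named GABA-C. GABRR2 reached at most 0.916 CPM, GABRR1 at most 0.148 CPM, and GABRR3 had no count at day 11. GABBR1, the ligand-binding GABA-B subunit, was among the most abundant at day 11 and had 90.1 and 90.9 CPM at 0.7 µM, 50.7 and 82.7 CPM at 3 µM, 41.0 and 85.8 CPM at 5 µM, and 52.8 and 75.2 CPM at 7.5 µM, against 93.7 and 57.6 CPM in hPSC. Both 0.7 µM libraries lay above all of those at 3, 5 and 7.5 µM, the groups otherwise overlapped, and none of the comparisons passed. Its signalling partner GABBR2 was at 1.37 to 5.02 CPM in the same day 11 libraries.

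At 3 and 5 µM against 0.7 µM no receptor gene passed edgeR with or without the block, where 0.0214% of all genes passed at 3 µM and 1.13% at 5 µM with it, and 0.0% at each dose without it. At 5 µM 15 of the 39 had an unadjusted p under 0.05 with the block and 6 without it, and blocked DESeq2 called 4, and 3.27% of all genes. At 3 µM 9 had such a p with the block and 1 without it, and blocked DESeq2 called 2, and 1.05% of all genes. DESeq2 without the block called 0 at both doses, and 0.69% of all genes at 5 µM and 0.0909% at 3 µM. Between 7.5 and 5 µM, GRM4, GRIN3A and GRM3 passed with the block, where 6.53% of all genes passed. No receptor gene passed there without it by edgeR, with 7 at an unadjusted p under 0.05, where 0.0% of all genes passed, and DESeq2 called 1, and 1.09% of all genes. The slope over log2 CHIR concentration passed edgeR in no receptor gene, where 1.19% of all genes passed with the block and 0.134% without it. With the block 18 receptor genes had an unadjusted p under 0.05, and DESeq2 called 10, and 4.34% of all genes. Without the block 11 had such a p, and DESeq2 called 2, and 1.76% of all genes. These comparisons share the 0.7 µM or the 7.5 µM libraries.

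Calls in the marker lists between 7.5 and 0.7 µM are to be read against the 10.5% of all genes called in this blocked fit. Of 7 mesoderm and mesenchyme markers 4 were called higher and none lower. The list summed to 67.7 and 110 CPM at 7.5 µM against 14.7 and 29.9 CPM at 0.7 µM. CDX2, a caudal transcription factor of this list, had 11.8 and 10.6 CPM at 7.5 µM and no count at 0.7 µM. CDX2 and a further gene of the 4 did not reach the filter at 0.7 µM and entered the test through higher doses. Their calls are read as no result. The epithelial list had 3 of 8 tested genes fall (CDH1, KRT8, TFAP2C), with sums of 238 and 246 CPM against 530 and 310 CPM. Of 10 neuron markers GAP43 rose and DCX fell, with sums of 387 and 602 CPM at 7.5 µM against 266 and 472 CPM at 0.7 µM. Of 6 progenitor markers PAX6 fell. Of 4 tested neural crest markers 1 rose (TFAP2B) and 1 fell, of 5 tested glial markers 1 fell, and of 4 tested pluripotency markers none passed. NANOG, KRT5 and FOXD3, which define other cell types of these lists, were under 0.1 CPM in every day 11 library. The part of these cells in the receptor differences was not tested.

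**Figure D3:**
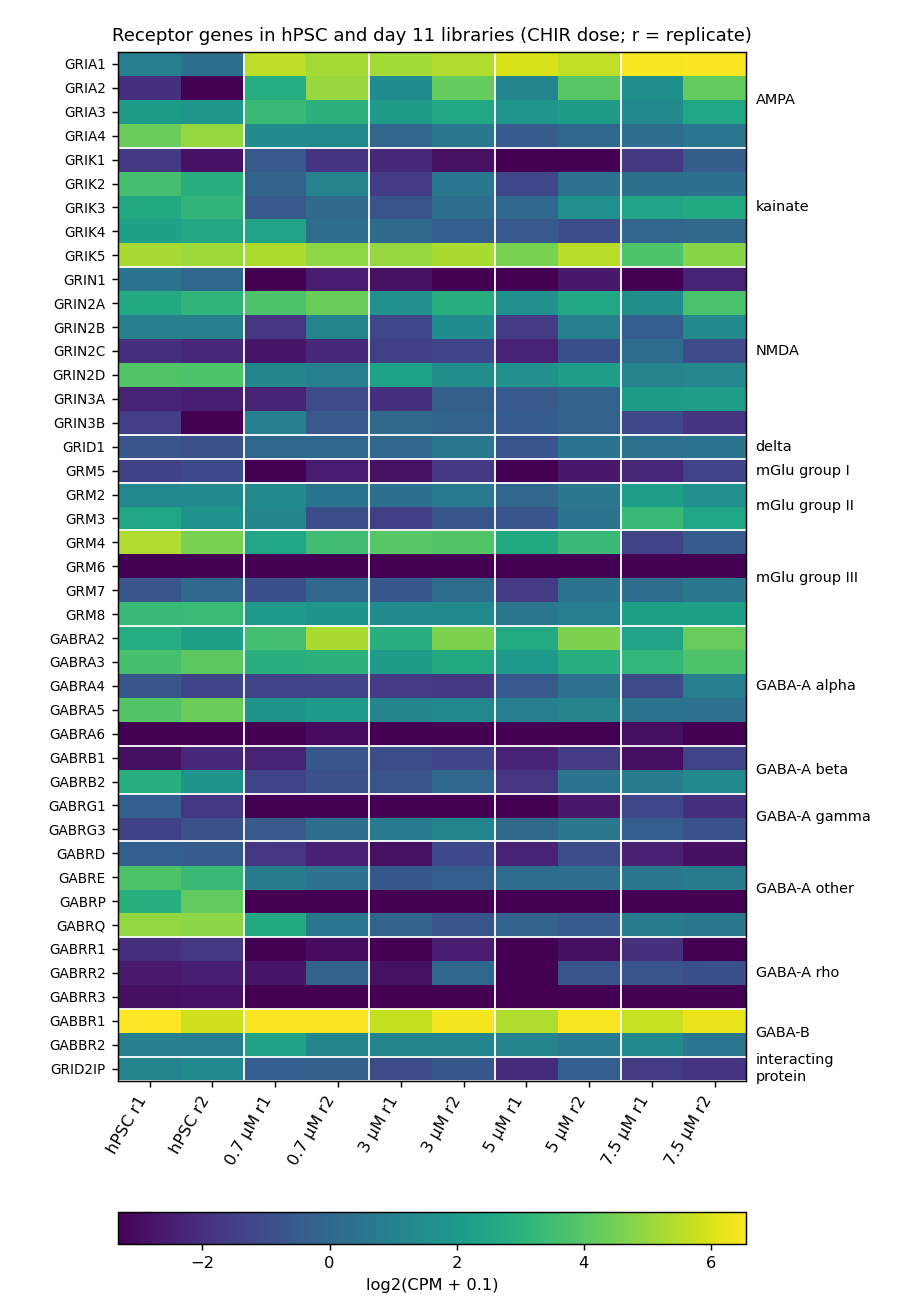
Colour gives log2(CPM + 0.1) of 43 receptor genes (rows, ordered by class) in each hPSC and day 11 library (columns; r, replicate). GRIA4 and GABRQ are brighter in hPSC than in any day 11 library, GRIA1 is high at every day 11 dose, and GABRP has no count in any day 11 library.

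Set against hPSC, day 11 cultures had lower levels of many GABA-A subunits and of GRIA4, GRIK2 and GRM4, and a higher level of GRIA1. For the mean of the 4 day 11 arms, 22 of the 42 genes tested passed (edgeR), 4 higher and 18 lower, where 21.1% of all 19672 genes tested passed, 7.85% higher and 13.3% lower. Of these 42 genes, 3 entered the test only through hPSC, GABRP and GRIN1 among them. They had to differ, and their calls are read as no result. Among the other 39 genes, 19 passed, 4 higher and 15 lower. Of these 4, GRIA2, GRIN3A and GABRG3 did not reach the filter in both hPSC libraries and entered the test through day 11. Their calls are read as no result too, which leaves GRIA1. In summed CPM, AMPA subunits had 44.2 to 115 CPM at day 11 against 25.5 and 36.4 CPM in hPSC, and kainate subunits 21.8 to 49.7 CPM against 62.2 and 56.2 CPM. The mGlu group III receptors had 6.15 to 19.0 CPM at day 11 against 52.2 and 34.9 CPM in hPSC, and the delta, epsilon, theta and pi subunits of GABA-A receptors 1.43 to 8.19 CPM against 52.5 and 57.2 CPM. The summed ranges of day 11 and hPSC overlapped for GABA-A alpha, GABA-B, NMDA and mGlu group II receptors, among others. For NMDA receptors the overlap rested on 0.7 µM replicate 2 alone, at 24.9 CPM against 24.5 and 26.1 CPM in hPSC. The day 11 median of that class was 14.6 CPM. The median log2 fold change was -0.52 over the 39 genes and 0.04 over all genes tested. With a replicate block inside day 11, 30 of the 42 passed, where 54.6% of all genes passed. The count was 10 and 12 without hPSC replicate 1 and replicate 2, and 20 to 24 without any single day 11 library.

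GABRP, the GABA-A pi subunit known from uterus and other epithelia, had 7.56 and 17.8 CPM in hPSC (244 and 447 counts) and no count in any of the 8 day 11 libraries. It was at least 866-fold lower at day 11 (floor of 3 counts over all day 11 libraries). As stated above, its call is read as no result. In the same comparison 4 of 8 tested epithelial markers fell (TFAP2C, EPCAM, CDH1 and KRT18). The epithelial list summed to 238 to 530 CPM at day 11, against 1090 and 1080 CPM in hPSC, and its part in the GABRP difference was not tested. GABRQ, the theta subunit, had 30.6 and 28.4 CPM in hPSC and 0.493 to 6.29 CPM at day 11. It fell (-4.31 ± 0.48, adjusted p = 0.000878), and all day 11 libraries lay below hPSC. GABRE, the epsilon subunit and the one of its class with the most CPM per kb at day 11, fell too (-3.24 ± 0.27, adjusted p = 0.000271), with 0.563 to 1.72 CPM at day 11 against 13.7 and 10.3 CPM in hPSC. The fourth gene of this class, GABRD, had 0.0312 to 0.409 CPM at day 11 and 0.681 and 0.638 CPM in hPSC, and did not pass.

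GABRA5 fell by 2.87 ± 0.26 on the log2 scale (edgeR adjusted p = 0.000335) and GABRB2 by 2.56 ± 0.51 (adjusted p = 0.0102). The GABRB2 call was lost without hPSC replicate 1 (adjusted p = 0.173), and that of GABRA5 held without each library. GABRG3 passed in the other direction (1.67 ± 0.48, adjusted p = 0.0414), with 0.468 to 2.08 CPM at day 11 against 0.279 and 0.439 CPM in hPSC. That call was lost without 8 of the 10 libraries, the 0.7 µM ones excepted, and without scaling factors or filter. GABRG3 entered the test through day 11 only, so the call is read as no result.

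AMPA subunits changed places between the stages. GRIA1 was at 36.4 to 89.2 CPM at day 11, against 1.83 and 1.12 CPM in hPSC, and rose by 5.37 ± 0.43 (edgeR adjusted p = 0.000226). GRIA4 was at 0.626 to 2.58 CPM, against 19.4 and 31.6 CPM in hPSC, and fell by 4.13 ± 0.27 (adjusted p = 0.000115). Both groups of libraries were fully apart and both calls held without each library. GRIA2 was also called higher (7.20 ± 1.77, edgeR adjusted p = 0.024), with 5 counts or fewer in each hPSC library. It entered the test through day 11 only, so this call is read as no result. The call was also lost without either hPSC library.

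Among the other glutamate receptor genes, all that passed fell except GRIN3A. GRIK2, a main channel-forming kainate subunit, was at 0.225 to 2.03 CPM, against 12.2 and 7.14 CPM in hPSC (-3.12 ± 0.54, edgeR adjusted p = 0.00573), and GRIK3 fell by 2.07 ± 0.39 (adjusted p = 0.00813). Both calls were lost without hPSC replicate 1, and that of GRIK3 also without replicate 2. GRIN2D, an NMDA subunit of embryonic brain and the one with the most CPM per kb at day 11, was at 1.83 to 5.18 CPM, against 14.6 and 14.2 CPM in hPSC (-2.12 ± 0.32, adjusted p = 0.00317). GRIN1, the subunit that every NMDA receptor needs, had 3 counts at 7.5 µM and 64 in hPSC, a level 24.5-fold lower (95% interval 8.01 to 122, counting error only). It entered the test only through hPSC, so its call is read as no result. The interval does not allow for that choice. GRIN3A was the NMDA subunit called higher (3.22 ± 0.76, adjusted p = 0.0203), a call lost without either hPSC library. It entered the test through day 11 only, so this call is read as no result. GRM4 fell by 2.59 ± 0.35 (adjusted p = 0.0021), with the call kept without each library. GRID2IP fell by 2.29 ± 0.43 (adjusted p = 0.00759). GRM8 (-1.64 ± 0.26, adjusted p = 0.00369) and GRIK4 (-2.21 ± 0.53, adjusted p = 0.0214), named after their values were seen, fell as well. The calls of GRID2IP, GRM8 and GRIK4 were each lost without either hPSC library, and that of GRIK4 also without either 7.5 µM library.

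At the ends of the dose range 11 receptor genes passed at 7.5 µM against hPSC, 2 higher and 9 lower, where 10.1% of all genes passed, 4.35% higher and 5.7% lower. GABRP is 1 of the 9 and GRIN3A 1 of the 2, and neither call is read as a result. With the block 24 passed, where 34.8% of all genes did. At 0.7 µM against hPSC 11 passed, 2 higher and 9 lower, where 11.4% of all genes passed, 5.31% higher and 6.12% lower. GABRP is again 1 of the 9 and GRIA2 is 1 of the 2, and neither call is read as a result. With the block 27 passed, where 46.1% of all genes did. GRIA1 rose in both (5.88 ± 0.46, adjusted p = 0.00133 at 7.5 µM, and 5.01 ± 0.44, adjusted p = 0.00217 at 0.7 µM, edgeR). GRIK3 was -0.40 ± 0.55 at 7.5 µM (adjusted p = 0.769) and -3.12 ± 0.60 at 0.7 µM (adjusted p = 0.0175), and GRM4 was -6.14 ± 0.64 (adjusted p = 0.00275) and -1.76 ± 0.52 (adjusted p = 0.0686). The difference between those doses is the 7.5 against 0.7 µM comparison given above. Leaving out 1 library gave 4 calls at 7.5 µM in each case and 1 to 7 at 0.7 µM.

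Some receptor genes differed between the replicate numbers at day 11. In a fit with dose and replicate number, 10 of 39 passed, 8 lower and 2 higher in replicate 1. Of all genes 55.6% passed, 28.7% lower and 26.9% higher, so a smaller share of the receptor genes was called. GRIN2B, an early-expressed NMDA subunit, had 0.195 and 2.10 CPM at 0.7 µM, 0.338 and 2.71 CPM at 3 µM, 0.241 and 1.84 CPM at 5 µM, and 0.683 and 2.43 CPM at 7.5 µM. Replicate 1 was the lower at each dose (-2.48 ± 0.37, edgeR adjusted p = 0.000708), and the hPSC libraries had 1.86 and 1.88 CPM. GRIA2 (-2.44 ± 0.21, adjusted p = 0.000265) and GABRA2 (-1.56 ± 0.19, adjusted p = 0.000408) were lower in replicate 1 as well. GABRR2, GRIK2 and GRIN2A were also lower, by 2.16 ± 0.80, 1.12 ± 0.42 and 1.01 ± 0.30 on the log2 scale. GABBR2 (0.85 ± 0.28) and GABRQ (1.11 ± 0.39) were higher in replicate 1, and neither was called without scaling factors. The calls of GABRR2, GRIK2, GABBR2 and GABRQ were each lost when any 1 library of 0.7, 3 or 5 µM was left out. Of the 48 genes, 13 were lower in replicate 1 at all 4 doses, 2 were higher at all 4 (GABRQ and GABBR2), and 3 had no count at day 11.

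**Figure D4:**
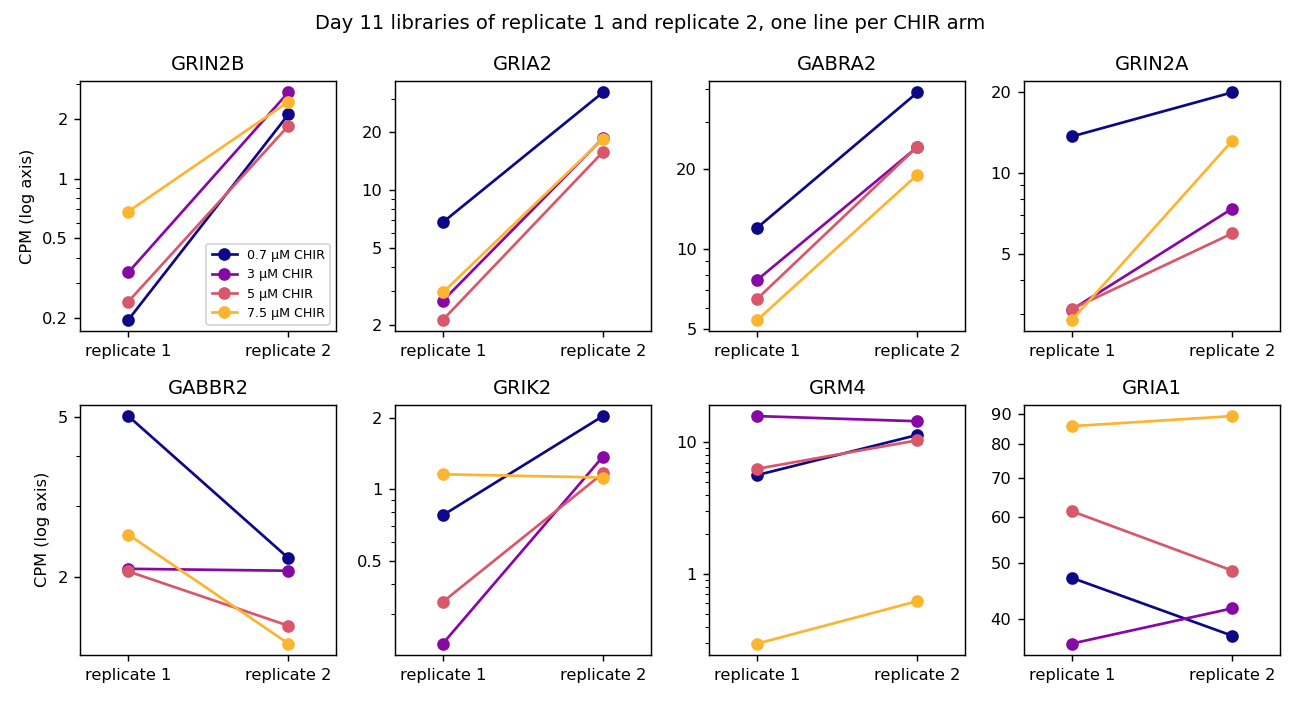
CPM on log axes of 8 receptor genes at day 11, 6 that passed between replicate numbers and 2 that did not (GRM4, GRIA1), with replicate 1 left of replicate 2 and lines joining the libraries of 1 dose. GRIA2, GRIN2B, GABRA2 and GRIN2A are lower in replicate 1 at each of the 4 doses.

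In the same contrast, where 55.6% of all genes passed, 6 of 10 neuron markers were lower in replicate 1 and none higher. DCX differed by -1.12 ± 0.17 (edgeR adjusted p = 0.000785) and MAP2 by -0.81 ± 0.17 (adjusted p = 0.00301). The neuron list summed to 151 to 387 CPM in replicate 1 libraries and 363 to 602 CPM in replicate 2 libraries. Of 8 tested epithelial markers 4 were higher in replicate 1 and 1 was lower. KRT7, an epithelial keratin, had 39.7 and 0.715 CPM at 0.7 µM and was higher in replicate 1 (4.85 ± 0.76, adjusted p = 0.000837), whereas CDH1 was lower (-4.06 ± 0.46, adjusted p = 0.000383). The part of such markers in the receptor differences was not tested.

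Genes that make, move or anchor the receptors and their transmitters gave the following counts, again beside 10.5% of all genes called between 7.5 and 0.7 µM. Of 8 tested genes of GABA synthesis, release and breakdown 1 rose, a share close to that of all genes. This was GAD1, the GABA-synthesising enzyme, which had 9.72 and 33.9 CPM at 3 µM and 97.5 and 110 CPM at 7.5 µM, against 1.71 and 11.4 CPM at 0.7 µM. The 7.5 µM libraries stood above the rest (4.24 ± 0.52, edgeR adjusted p = 0.00153), and GAD2 stayed below 0.1 CPM. GAD1 also passed, as higher, for the slope over CHIR concentration with the block. GAD1 also rose against hPSC (5.66 ± 0.97, adjusted p = 0.00559), while ABAT, which breaks GABA down, fell by 1.89 ± 0.43 (adjusted p = 0.0175).

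Of 12 tested glutamate genes 3 rose and 1 fell between 7.5 and 0.7 µM. SLC1A2, a glial glutamate transporter, had 5.67 and 8.20 CPM at 7.5 µM and 0.633 and 0.938 CPM at 0.7 µM (3.00 ± 0.43, edgeR adjusted p = 0.00293). SLC38A1 and SLC1A1 rose by 1.59 ± 0.34 and 1.36 ± 0.26, and SLC38A3, a glutamine transporter, fell by 2.12 ± 0.37 on the log2 scale. Of 14 tested auxiliary subunits 3 rose and 1 fell. SHISA6, which keeps AMPA receptors from desensitising, had 64.5 and 68.1 CPM at 7.5 µM against 2.44 and 9.14 CPM at 0.7 µM (3.54 ± 0.42, adjusted p = 0.00133). SHISA9 and NETO2 rose by 1.85 ± 0.30 and 1.33 ± 0.23, and CACNG7 fell by 2.15 ± 0.31. Of 22 postsynaptic scaffold genes none rose and DLG4 and PICK1 fell, by 1.19 ± 0.25 and 1.08 ± 0.27, a share close to that of all genes. Of 4 chloride transporters SLC12A2, the importer that makes GABA depolarising, rose by 1.27 ± 0.29 (adjusted p = 0.0237).

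Against hPSC these lists were mixed, where 21.1% of all genes passed. Of 16 tested auxiliary subunits 2 rose and 7 were called lower, among them CACNG8 (-3.62 ± 0.33, edgeR adjusted p = 0.000377) and KCTD8 (-3.52 ± 0.39, adjusted p = 0.000777). NETO2, a kainate receptor partner, rose (1.77 ± 0.26, adjusted p = 0.00269). Only 14 of the 16 were also tested between doses. The rest entered the test only through hPSC and are among the 7, and their calls are read as no result. Of 12 tested glutamate genes 1 rose and 4 fell, led by GLS2 (-3.43 ± 0.33, adjusted p = 0.000466). Of 22 scaffold genes 5 rose and 2 fell, with NLGN3 (1.52 ± 0.25) and GPHN, the anchor of GABA-A receptors (1.25 ± 0.25), among those that rose. None of the 4 chloride transporters passed. The median log2 fold change was 0.56 for the auxiliary subunits, -0.38 for the glutamate genes and 0.04 for the scaffold genes, against 0.04 over all genes tested.

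Day 16 and day 30 were compared only with each other, since their tables are a separate and shallower set, and 47 of the 48 genes had a row there. Of 32 genes tested 6 passed (edgeR), 5 higher and 1 lower at day 30, where 11.0% of all 15435 genes tested passed, 6.82% higher and 4.2% lower. Of the 5 higher, GABRA2, GABRA3 and GRID2IP did not reach the filter in both day 16 libraries. They entered the test through day 30, and their calls are read as no result. With the block 5 passed, where 6.91% of all genes did. The median log2 fold change was 0.71 over the 32 genes and -0.19 over all genes tested. Neuron markers summed to 572 and 612 CPM at day 30 and to 1020 and 160 CPM at day 16, so the day 16 libraries were far apart. Leaving out 1 library gave 17 and 18 calls without a day 16 library and 0 and 1 without a day 30 library, and none of the 6 calls held throughout.

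**Figure D5:**
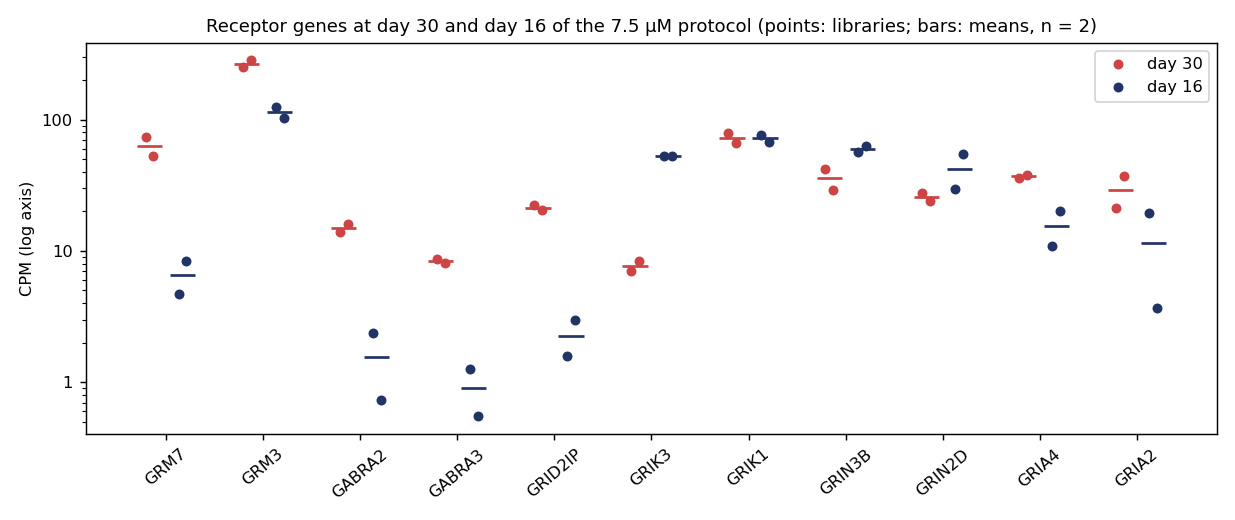
CPM on a log axis of receptor genes at day 30 and day 16 of the 7.5 µM protocol, with 1 point per library (n = 2 each). GRM3 is the highest shown, at 250.7 and 281.5 CPM at day 30, and GRIK3 lies lower at day 30 than at day 16.

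GRM7, a presynaptic group III mGlu receptor, had 73.3 and 52.5 CPM at day 30 and 4.74 and 8.32 CPM at day 16 (3.35 ± 0.63, edgeR adjusted p = 0.000454). GRM3 had 250.7 and 281.5 CPM at day 30 and 125.5 and 102.3 CPM at day 16 (1.37 ± 0.45, adjusted p = 0.042), which gave the highest CPM per kb of the receptor genes at day 30, 59.5. The groups did not overlap for either gene, and the GRM3 call was lost with the replicate block (adjusted p = 0.133) and without the filter (adjusted p = 0.0588). GABRA2 had 14.0 and 15.9 CPM at day 30 against 2.37 and 0.740 CPM at day 16 (3.46 ± 0.80, adjusted p = 0.00319). GABRA3 had 8.66 and 8.05 CPM against 1.26 and 0.555 CPM (3.36 ± 0.86, adjusted p = 0.00783). The scaffold GRID2IP had 22.3 and 20.5 CPM against 1.58 and 2.96 CPM (3.32 ± 0.75, adjusted p = 0.0027). As stated above, the calls of GABRA2, GABRA3 and GRID2IP are read as no result. GRIK3 was the gene that fell, with 7.07 and 8.42 CPM at day 30 against 52.7 and 53.1 CPM at day 16 (-2.65 ± 0.61, adjusted p = 0.00326). The calls of GABRA2 and GABRA3 were lost without scaling factors (adjusted p = 0.061 and 0.066).

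Other receptor genes were abundant at both late stages without passing. GRIK1 had 79.5 and 65.9 CPM at day 30 and 76.9 and 67.5 CPM at day 16, GRIN3A had 18.6 and 22.9 CPM and 17.8 and 22.4 CPM, and GRIN3B had 42.0 and 29.3 CPM and 56.8 and 62.5 CPM. GRIA4 had 35.9 and 38.1 CPM at day 30 and 10.9 and 20.2 CPM at day 16, a difference of 1.31 ± 0.61 with an adjusted p of 0.182 (edgeR). GRM4 had 8.83 and 11.2 CPM at day 30 against 5.84 and 13.3 CPM at day 16, and its groups overlapped. GABRP had 1 count in each of 2 of the 4 late libraries. Among the pathway lists, where 11.0% of all genes passed, 1 of 4 tested GABA genes was called higher at day 30. This was SLC6A11, a GABA transporter (4.24 ± 0.997, edgeR adjusted p = 0.0039), with 0.316 and 0 CPM at day 16. It entered the test through day 30 only, so its call is read as no result. Of 9 tested glutamate genes 2 were called higher and 1 fell. SLC1A2, 1 of the 2, had 4.1 and 0.555 CPM at day 16. It did not reach the filter in both day 16 libraries, so its call is read as no result. SLC17A6, the vesicular glutamate transporter VGLUT2, was the other gene called higher (1.92 ± 0.64, edgeR adjusted p = 0.0484). It had 27.6 and 50.1 CPM at day 30 against 20.7 and 4.07 CPM at day 16, where the libraries were far apart.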

How the data were processed

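RNA counts per gene were used as deposited by the authors; per the submitters' processing notes reads were handled against hg19, with DESeq2 1.12.4, HTSeq 0.5.3, featureCounts 1.4.2 and STAR 2.4.2a as the tools named. What each tool did, and whether counting used the strand, is not given in the sources used here. Summary entries in 5 rows of each hPSC and day 11 table, 37.4% to 44.3% of its counts, were left out. CPM were computed over gene rows. Exon lengths and overlaps came from GENCODE 29, joined by gene identifier (46 of the 48 genes matched), so no coordinates of the files are printed. RefSeq promoters have another build than the counts.

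Tests used edgeR 4.0.16 (limma 3.58.1, R 4.3.3) with its quasi-likelihood test (robust fits, TMM factors, the filterByExpr filter) and Benjamini-Hochberg adjustment over all genes tested, at 0.05. DESeq2 1.42.0 was an alternative. Scripts were tested on simulated data. Tested were 39 of the 48 genes at day 11, 42 with hPSC and 32 at days 16 and 30. The fit without the block was the planned one. Replicate numbers pair the day 11 libraries (correlations 0.619 to 0.827, shared description codes), but not hPSC with day 11 (-0.157 to -0.104) or day 16 with day 30 (-0.215, a pairing that the shared codes of these libraries would give). Against hPSC the block was within day 11 only.

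Genes named are GRM4, GABRP, those passing in a comparison with a mean of at least 0.5 CPM in the higher group (at most 12 per direction), and the most abundant of each class per kb; at most 4 genes are named per list and comparison. Genes and lists were chosen with earlier results of these data known. Since no label says that replicates are separate cultures, a p-value reflects library-to-library spread alone, which may be technical. Bounds use a floor of 3 counts per group; intervals at 95% are exact and cover counting error only. Some receptor and marker genes that enter the counts are not reported here by name.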

Additional observations from a re-analysis of the deposited data

How the results depend on the processing

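Counts are of receptor genes that passed. For 7.5 against 0.7 µM, none passed without the replicate block, 4 with DESeq2, 1 without the filter, 14 with the block, and with the block 16 by DESeq2, 18 without the filter, 11 without scaling factors and 14 with RLE factors; leaving out single libraries gave 0 to 0, and 5 to 19 with the block. For 7.5 against 5 µM they were 0, 1 with DESeq2, 3 with the block, and with it 8 by DESeq2, 9 without the filter, 6 without scaling factors and 3 with RLE factors, with 1 to 10 when a library was left out with the block. For 5 against 0.7 µM blocked DESeq2 gave 4, the block without the filter 6 and omissions 0 to 2. For 3 against 0.7 µM blocked DESeq2 gave 2 and the block without the filter 2. For the slope DESeq2 gave 2, blocked DESeq2 10, the block without the filter 1, the block with RLE factors 1 and omissions 0 to 1. Against hPSC, 7.5 µM gave 11, 17 with DESeq2, 24 with the block and 4 to 4 under omissions; 0.7 µM gave 11, 19 with DESeq2, 27 with the block and 1 to 7; the day 11 mean gave 22, with 10 to 24. The replicate contrast gave 10, with 6 to 14, and day 30 against day 16 gave 6, with 0 to 18 and 5 with the replicate block. Crossing the pairing of day 16 and day 30, a choice made after seeing the data, gave 6 receptor genes and 1749 genes in all.

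Leaving out scaling factors moved the median of all genes to 0.24 from 0.07 in 7.5 against 0.7 µM (blocked), to 0.31 from 0.06 in 7.5 against 5 µM (blocked) and to -0.22 from -0.02 between replicates; the shares of called genes that were higher were then 67.1%, 75.4% and 36.7%, against 53.7%, 49.4% and 48.4%. Of 1378 single-gene values, none of those called changed direction, 136 lost and 189 gained a call. The cause of these changes was not tested. Depth limits the genes near 1 CPM or less, and days 16 and 30 most. Some late rows were at 0 CPM in all 4 late libraries although high at day 11. GABARAP had 54.0 and 44.9 CPM and SOX2 210 and 229 CPM at 7.5 µM on day 11. Why these rows were at 0 was not tested, so absence in the late libraries is to be read with care.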
